A study of Homo sapiens with 16 samples.

Results

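The integrin and laminin chains are the genes whose symbols name an integrin alpha chain (ITGA followed by a number, 2B, D, E, L, M, V or X), an integrin beta chain (ITGB1 to ITGB8) or a laminin alpha, beta or gamma chain. The deposited table held 38 of them among 61806 genes, namely 18 integrin alpha chains, 8 integrin beta chains and 12 laminin chains, and no measured value was used to choose them. Their transcripts were measured by poly(A) RNA-seq in LX-2 cells, a human line derived from hepatic stellate cells, which produce collagen in the injured liver and were immortalised to grow in culture. The 4 groups, with 4 replicates in each, were wild-type cells treated with TWEAK, a cytokine, at 100 ng/mL over 2 h, cells with total Fn14 knocked out by CRISPR/Cas9 and given PBS (Fn14 KO), cells with Fn14alpha knocked out by CRISPR/Cas9 and given PBS (Fn14alpha KO), and wild-type cells given PBS (WT). Fn14, encoded by TNFRSF12A, is the receptor of TWEAK, and the series concerns a splice isoform of it that signals without TWEAK. All cells had grown for 24 h in a reduced-serum medium before the 2 h of treatment or vehicle. The labels do not say whether each knockout line is a clone or pooled cells, so knockout and cell line cannot be told apart. In bulk RNA, fewer cells of a kind and less RNA per cell cannot be told apart either. Nothing says that the replicates came from separate cultures, and p-values therefore reflect only how far these libraries spread, which may be technical.

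Integrins are receptors made of 1 alpha and 1 beta chain that span the cell membrane, bind matrix proteins or counter-receptors outside and connect to actin inside. ITGB1 is the shared partner of the largest group of alpha chains, those that bind collagen, fibronectin and laminin, whereas ITGAV chooses among several beta chains and binds ligands with an RGD motif. Laminins are cross-shaped heterotrimers of an alpha, a beta and a gamma chain that polymerise into the basement membrane, and the alpha chain carries the main site bound by integrins. In the liver, laminins accumulate in the space beside the sinusoids during fibrosis, and integrins of stellate cells take part in matrix sensing and in the activation of latent TGF-beta.

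The promoter windows of 5 chains are given because these chains carry the main differences: LAMB3, LAMA5 and ITGAV were called higher with TWEAK, LAMA4 had the largest fall in the Fn14 KO among chains at 1 FPKM or more, and ITGB1 is the most abundant chain to fall in the Fn14alpha KO. They come from RefSeq on GRCh38.p14, which had an entry for 26 of the 38 chains, and run from 250 bases before to 50 bases after a start site, 5′ to 3′ on the gene's strand. The windows are LAMB3 at chr1:209652376-209652675 (minus strand), LAMA5 at chr20:62367263-62367562 (minus strand), ITGAV at chr2:186589806-186590105 (plus strand), ITGB1 at chr10:32958181-32958480 (minus strand) and LAMA4 at chr6:112254518-112254817 (minus strand). Capitals mark a match on either strand to the NF-kB consensus, to AP-1 (TGACTCA), to TEAD (GGAATG) or to a GC box (GGGCGG).
LAMB3: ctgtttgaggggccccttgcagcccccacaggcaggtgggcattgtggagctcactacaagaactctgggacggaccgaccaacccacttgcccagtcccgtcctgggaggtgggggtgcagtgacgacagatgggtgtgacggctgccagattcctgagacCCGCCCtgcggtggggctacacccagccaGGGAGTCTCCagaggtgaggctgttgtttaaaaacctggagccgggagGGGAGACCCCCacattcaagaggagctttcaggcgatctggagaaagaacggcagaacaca
LAMA5: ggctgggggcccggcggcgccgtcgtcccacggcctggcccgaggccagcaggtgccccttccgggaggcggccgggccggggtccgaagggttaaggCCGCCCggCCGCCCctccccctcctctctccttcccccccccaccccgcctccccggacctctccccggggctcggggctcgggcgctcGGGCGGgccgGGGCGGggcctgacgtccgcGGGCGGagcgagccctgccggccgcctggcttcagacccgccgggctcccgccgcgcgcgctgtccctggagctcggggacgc
ITGAV: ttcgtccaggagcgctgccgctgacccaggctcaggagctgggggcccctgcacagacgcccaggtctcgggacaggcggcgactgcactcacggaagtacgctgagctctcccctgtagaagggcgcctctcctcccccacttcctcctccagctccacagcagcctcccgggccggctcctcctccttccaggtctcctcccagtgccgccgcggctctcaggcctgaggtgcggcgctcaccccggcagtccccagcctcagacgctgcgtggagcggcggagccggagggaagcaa
ITGB1: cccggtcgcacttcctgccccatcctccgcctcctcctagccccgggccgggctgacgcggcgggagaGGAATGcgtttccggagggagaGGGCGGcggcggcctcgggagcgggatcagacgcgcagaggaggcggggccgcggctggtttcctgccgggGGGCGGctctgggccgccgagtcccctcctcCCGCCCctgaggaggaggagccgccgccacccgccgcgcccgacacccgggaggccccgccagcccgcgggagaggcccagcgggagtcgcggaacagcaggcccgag
LAMA4: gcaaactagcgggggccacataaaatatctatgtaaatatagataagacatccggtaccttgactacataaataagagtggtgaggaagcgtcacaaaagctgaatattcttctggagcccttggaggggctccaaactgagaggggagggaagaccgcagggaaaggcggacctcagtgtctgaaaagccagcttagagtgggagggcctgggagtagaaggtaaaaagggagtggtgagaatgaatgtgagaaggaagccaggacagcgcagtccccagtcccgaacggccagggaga
The LAMB3 window held 3 matches to the NF-kB consensus, 59, 11 and 10 bases before the start site, of which the last 2 overlap each other. RefSeq lists 3 windows for LAMB3: a second one overlaps this window and holds the same matches, and the third, at chr1:209651325-209651624, holds 0 NF-kB matches and 1 AP-1 match. ITGAV and ITGB1 have 2 windows each, and the ones not shown held none of the 4 motifs. Over all 35116 windows of the RefSeq table, 5.91% held such a match, 4.95% an AP-1 match, 14.0% a TEAD match and 45.0% a GC box. The windows of LAMA5 and ITGAV held no NF-kB match. The LAMA5 window held 5 GC boxes, the ITGB1 window 3 GC boxes and 1 TEAD match, and those of ITGAV and LAMA4 none of the 4 motifs. Beyond LAMB3, an NF-kB match lay in a window of ITGA1, ITGA5, ITGA10 and ITGA11, none of which was called with TWEAK. A match is a run of letters and was not tested for binding.

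Total counts per library ran from 13335919 to 16888606. TNFRSF12A stood at 123 to 140.1 FPKM with TWEAK, 29.5 to 35.6 FPKM in the Fn14 KO, 51.8 to 64.7 FPKM in the Fn14alpha KO and 119 to 133 FPKM in WT, so both knockouts lay below every WT library (exact two-sided permutation test of 4 against 4, p = 0.0286 in each, adjusted over 4 comparisons 0.0381). A count per gene does not separate the isoforms of Fn14. On the third principal component, WT replicate 4 and Fn14 KO replicate 1 stood apart from the other libraries, and results are given without them where that matters. Of 12 stellate cell markers, 8, 7, 7 and 8 reached 1 FPKM with TWEAK, in the Fn14 KO, in the Fn14alpha KO and in WT. COL1A1, VIM and TIMP1 were abundant in each group, while DES, RELN, HGF and LRAT stayed under 1 FPKM. Of the markers of other cells, PTPRC (leukocyte), CDH5 (endothelial), EPCAM (epithelial) and GP9 (platelet) had at most 0.0825 FPKM in any group. Others of the same lists were higher: the group means of the leukocyte genes LCP1 and HCLS1 reached 73.0 and 40.01 FPKM, those of the endothelial genes TIE1 and TEK 21.8 and 1.46 FPKM, and those of the epithelial genes KRT14 and KRT7 3.39 and 1.41 FPKM.

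Which chains these cells transcribe was asked first. FPKM is the count scaled to exonic size and library total, so that levels can be set side by side between genes. At a group mean of 1 FPKM or more in at least 1 group stood 20 of the 38 chains, and 17 of them in all 4 groups. In WT the order began with ITGB1, the common beta chain, at 81.1 ± 4.58 FPKM, followed by ITGA5, the alpha chain of the classical fibronectin receptor, at 78.1 ± 10.7 FPKM (SD, n = 4). These neighbours in the order overlapped. Next came ITGA3, which pairs with ITGB1 to bind laminins, at 55.7 ± 3.54 FPKM and LAMC1, the gamma chain of most laminins, at 50.1 ± 5.21 FPKM, whose ranges also overlapped. LAMB2 followed alone at 26.9 ± 1.54 FPKM, all 4 libraries above those of the next chain. ITGA6, ITGB5, LAMB3, LAMA5 and LAMB1 formed a group between 17.1 and 18.9 FPKM whose libraries overlapped. The rest were ITGA2, ITGAV, ITGB3, LAMA4, ITGAE, ITGA4, ITGA7, LAMA1 and ITGA1, from 6.43 down to 1.17 FPKM, and ITGA10, which passed 1 FPKM only in the Fn14 KO.

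**Figure D1:**
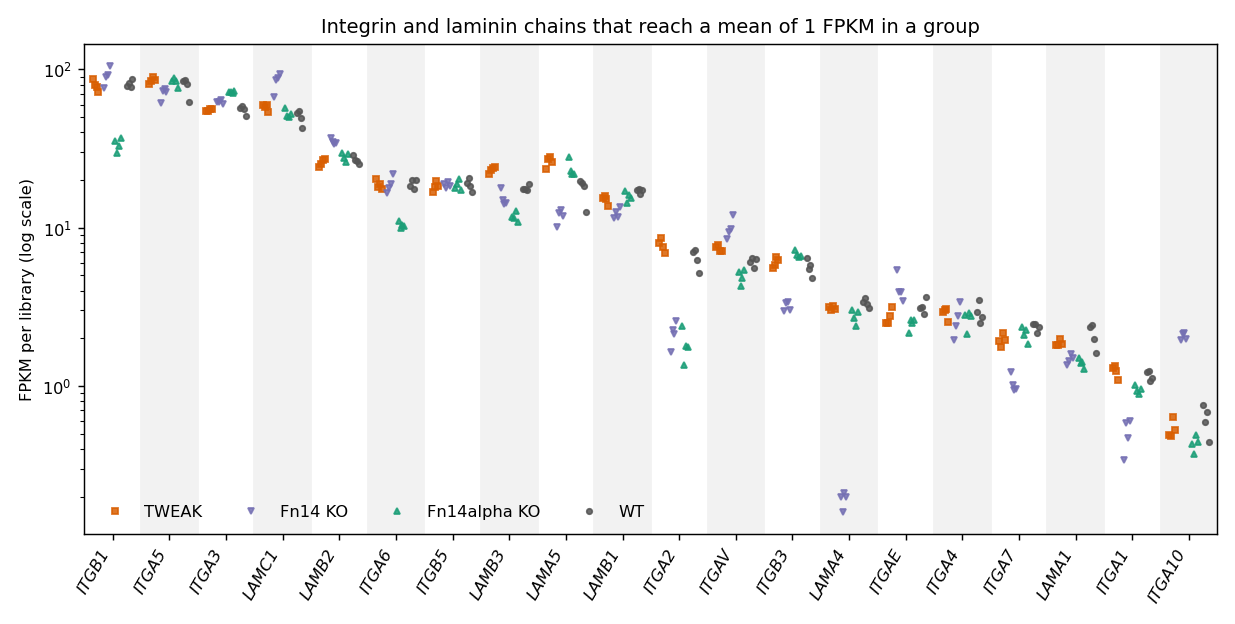
FPKM of the 20 chains that reach a mean of 1 FPKM in a group, on a log axis, with 1 point per library (4 per group) and chains ordered by their mean in WT. ITGB1 sits lower in the Fn14alpha KO, LAMA4 lower in the Fn14 KO and ITGA10 higher in the Fn14 KO than in any other group.

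This order depends on the exonic size that the authors divided by. The sizes in the table were more than 1.5 times the union of exons in GENCODE 29 for 6 chains, ITGB1, ITGAV, ITGB3, LAMB1, LAMA2 and ITGAL. With the GENCODE sizes, WT means were 196 FPKM for ITGB1, 39.1 FPKM for LAMB1 and 14.4 FPKM for ITGAV, against 81.1, 17.1 and 6.11 FPKM as deposited, and 21 chains reached 1 FPKM, LAMA2 being the one added. Comparisons of 1 chain between groups are not touched by this.

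The chains that were barely detected include several of white blood cells and epithelia, but also others such as ITGA11 and LAMA2. LAMB3 of skin laminin and ITGAE of T cells, in turn, reached 1 FPKM in every group. Under a mean of 1 FPKM in all groups were 18 chains, of which 9 passed the filter on low counts, with 247 to 2307 counts summed over the 16 libraries, and 9 did not. Those that passed include ITGA11, ITGA2B, ITGAX, ITGB4, ITGB8, LAMA2, LAMA3 and LAMC3. The 9 chains not tested were ITGA8, ITGA9, ITGAD, ITGAL, ITGAM, ITGB2, ITGB6, ITGB7 and LAMB4, with 6 to 67 summed counts and at most 0.17 FPKM in any library. ITGB2, the beta chain of leukocyte integrins, had 29 counts in all libraries together, and its alpha partners ITGAL, ITGAM, ITGAD and ITGAX had 36, 61, 6 and 649. In the Fn14 KO, ITGB2 and ITGAL had 0 counts in all 4 libraries. ITGB6, which pairs with ITGAV on epithelia, had 24 counts, and ITGB7, the partner of ITGAE, 67. Exons of ITGB7 share 1886 of 4481 bases with those of ZNF740 on the opposite strand, a gene of 13016 counts. Reads there cannot be told apart without a known strand setting, so the low count of ITGB7 is uncertain. No chain had 0 counts in all 16 libraries.

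Genes were compared with edgeR's quasi-likelihood test and called at a Benjamini-Hochberg adjusted p below 0.05 over all 16029 genes tested, 29 of the 38 chains among them. Differences are log2 fold changes with their standard error, relative to the bulk of genes. With TWEAK, 3 chains rose, ITGAV, LAMA5 and LAMB3, where 4.82% of all genes tested were called higher, and 0 fell, where 2.05% were called lower. With no filter on low counts, or with only the 2 groups in the fit, 5 chains were called higher. DESeq2 and limma also called 0 lower, and 1 chain was lower at an unadjusted p below 0.05. In the Fn14 KO, 9 chains rose against WT (26.6% of all genes were called higher) and 11 fell (26.3% of all genes were called lower). With the median of the 25 tested genes on each side removed, 4 rose and 13 fell there. In the Fn14alpha KO, 7 rose (20.0% of all genes) and 13 fell (22.2% of all genes). With the neighbours' median removed, 8 rose and 10 fell there. Between the knockouts, 11 chains were higher in the Fn14 KO than in the Fn14alpha KO (30.7% of all genes) and 11 lower (28.5% of all genes). Median differences over the 29 chains were 0.04 with TWEAK, -0.03 in the Fn14 KO, -0.17 in the Fn14alpha KO and 0.13 between the knockouts, against -0.01, -0.01, 0.01 and 0.00 over all genes tested. The 3 comparisons with WT share the WT libraries, so their calls are not independent of each other. The groups did not overlap in FPKM for 3 of 3 calls with TWEAK, 16 of 20 in the Fn14 KO, 19 of 20 in the Fn14alpha KO and 21 of 22 between the knockouts, where the share over all genes called was 91.6%, 75.2%, 84.0% and 77.4%. ITGA2B, ITGA4, ITGA5 and ITGB5 were called in none of the 4 comparisons in this fit.

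**Figure D2:**
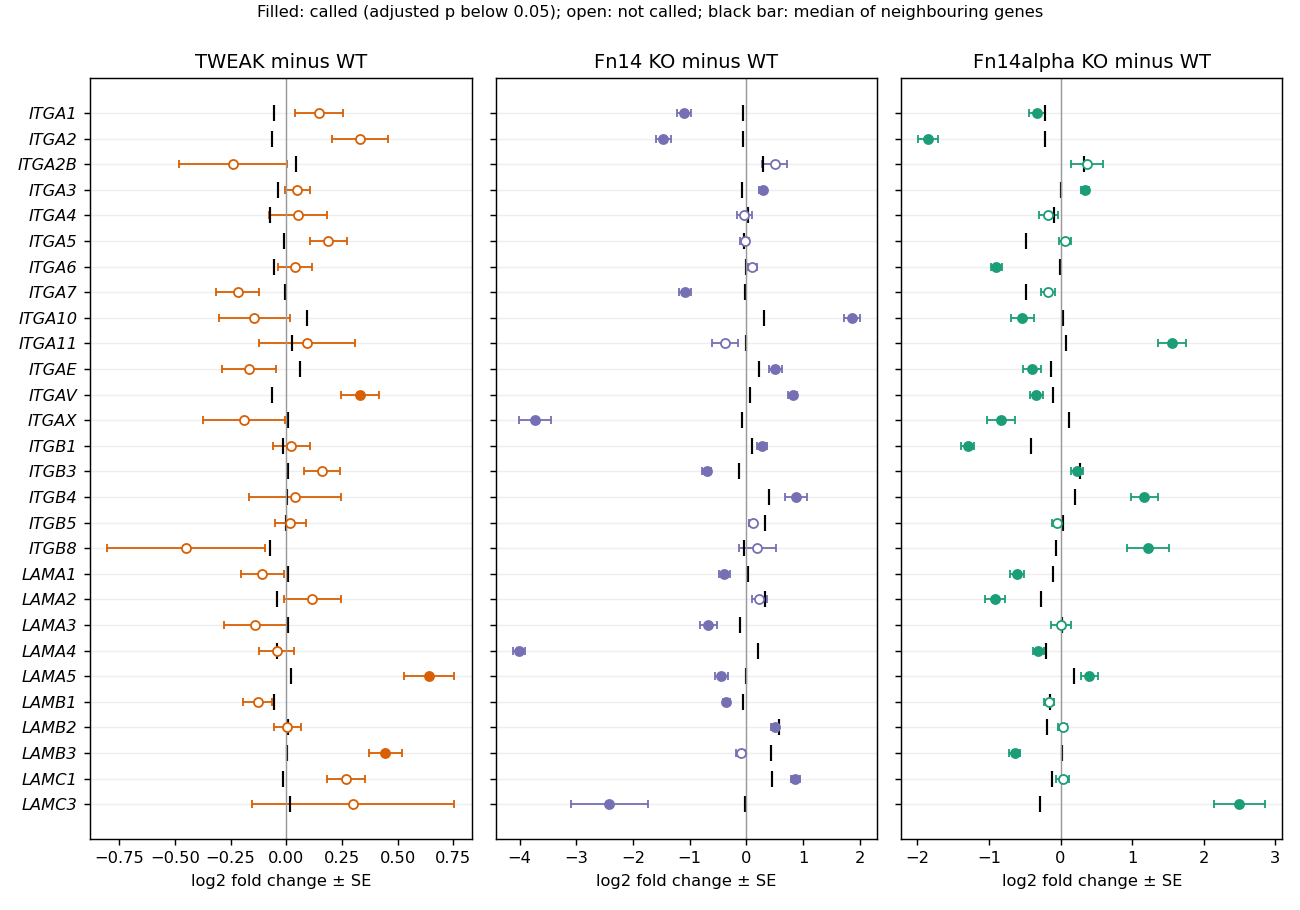
Log2 fold change ± SE of chains tested, for TWEAK, the Fn14 KO and the Fn14alpha KO against WT on horizontal scales that differ between panels, filled where called, with a black bar at the median of the 25 tested genes on each side on the same chromosome. The largest falls are LAMA4 at -4.01 and ITGAX at -3.73 in the Fn14 KO, and 3 chains are filled with TWEAK.

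Among the beta chains, ITGB1 stood out in the Fn14alpha KO. ITGB1 had 86.5, 80.2, 77.1 and 72.4 FPKM with TWEAK, 76.1, 89.2, 91.6 and 105 FPKM in the Fn14 KO, 35.5, 29.6, 32.8 and 36.96 FPKM in the Fn14alpha KO and 78.4, 81.7, 76.97 and 87.3 FPKM in WT. All 4 Fn14alpha KO libraries lay below every other library, at 40.6% of WT by the fit. The differences were -1.30 ± 0.09 (adjusted p = 1.53e-11) for the Fn14alpha KO against WT and 1.57 ± 0.09 (adjusted p = 1.58e-13) for the Fn14 KO against the Fn14alpha KO. The Fn14 KO against WT gave 0.27 ± 0.08 (adjusted p = 0.00814), but its libraries overlapped WT and the call was lost with library totals (0.16, adjusted p = 0.119), with limma on log2(FPKM + 1) (0.15, adjusted p = 0.173) and after removal of the median of neighbouring genes (0.18, adjusted p = 0.0951). Genes beside ITGB1 had a median of -0.42 in the Fn14alpha KO. With that removed ITGB1 remained lower, with a difference of -0.88 (adjusted p = 1.75e-08).

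ITGB3, the partner of ITGAV in the vitronectin receptor and of ITGA2B on platelets, fell in the Fn14 KO. ITGB3 had 5.6, 5.79, 6.55 and 6.24 FPKM with TWEAK, 2.96, 3.35, 3.41 and 3.03 FPKM in the Fn14 KO, 7.22, 6.7, 6.56 and 6.62 FPKM in the Fn14alpha KO and 6.41, 5.52, 5.8 and 4.83 FPKM in WT. The Fn14 KO libraries lay below all others. The difference was -0.70 ± 0.08 (adjusted p = 1.85e-07) against WT and -0.94 ± 0.08 (adjusted p = 1.22e-09) against the Fn14alpha KO, the second of which was -0.53 with the neighbours' median removed. In the Fn14alpha KO the difference from WT was 0.23 ± 0.08 (adjusted p = 0.0232), and it turned to -0.043 once the neighbours' median of 0.28 was removed. That call was also lost without WT replicate 2 (adjusted p = 0.0513), without WT replicate 4 (0.0922), without Fn14alpha KO replicate 1 (0.0753) and without the 2 libraries that stood apart (0.0567). With no filter on low counts it was lost as well (0.22, adjusted p = 0.0596). Exons of ITGB3 share 2266 of 4394 bases with an unnamed gene on the same strand, which had 1 count in all libraries. Reads there cannot be told apart, so the level of ITGB3 and its place in the order of chains are uncertain. Whether this touches its differences between groups was not tested. ITGB5, another partner of ITGAV, stood at 18.3 ± 1.25 FPKM with TWEAK, 18.6 ± 0.607 in the Fn14 KO, 18.6 ± 1.38 in the Fn14alpha KO and 18.8 ± 1.63 in WT (SD, n = 4), with overlapping libraries and no call. ITGB4, the partner of ITGA6 in hemidesmosomes, stayed under 1 FPKM, at 0.47 to 0.65 FPKM in the Fn14 KO, 0.58 to 0.88 FPKM in the Fn14alpha KO and 0.24 to 0.38 FPKM in WT. It rose by 0.87 ± 0.19 (adjusted p = 0.000514) in the Fn14 KO, a call lost with the neighbours' median removed (0.48, adjusted p = 0.0509), and by 1.17 ± 0.19 (adjusted p = 1.77e-05) in the Fn14alpha KO. ITGB8, which pairs with ITGAV, had 143 counts in the Fn14alpha KO and 64 in WT over 4 libraries each, a rise of 1.23 ± 0.29 (adjusted p = 0.00158), and it was lower in the Fn14 KO (66 counts) than in the Fn14alpha KO, with a difference of -1.04 ± 0.29 (adjusted p = 0.00385).

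ITGA3, ITGA5, ITGA6 and ITGA7 are alpha chains of fibronectin and laminin receptors. ITGA3 had 54.5, 54.5, 55.9 and 56.5 FPKM with TWEAK, 62.1, 62.7, 64.4 and 60.8 FPKM in the Fn14 KO, 72.2, 72.1, 71.4 and 72.9 FPKM in the Fn14alpha KO and 57.4, 58.5, 56.4 and 50.6 FPKM in WT. Both knockouts lay above WT without overlap, by 0.34 ± 0.06 (adjusted p = 2.2e-05) in the Fn14alpha KO and 0.28 ± 0.06 (adjusted p = 0.000126) in the Fn14 KO, the second of which was 0.17 with library totals (adjusted p = 0.0137). The fit gave -0.06 ± 0.06 (adjusted p = 0.387) for the Fn14 KO against the Fn14alpha KO, which was not called. In FPKM, however, all Fn14 KO libraries lay below those of the Fn14alpha KO. FPKM is scaled to library totals, which in place of TMM shifted the median of all genes by -0.15 between the knockouts. ITGA5 averaged 85.5 ± 3.74 FPKM with TWEAK, 70.3 ± 5.89 in the Fn14 KO, 83.3 ± 5.08 in the Fn14alpha KO and 78.1 ± 10.7 in WT (SD, n = 4) and was not called. Its knockouts did not overlap in FPKM either. For ITGA5 the Fn14alpha KO differed from WT by 0.06 ± 0.08 (adjusted p = 0.569), while the genes beside it had a median of -0.48. ITGA6 had 20.2, 17.9, 18.96 and 17.6 FPKM with TWEAK, 16.4, 17.7, 19.01 and 21.8 FPKM in the Fn14 KO, 10.96, 10.01, 10.4 and 10.2 FPKM in the Fn14alpha KO and 18.4, 19.9, 17.5 and 19.9 FPKM in WT. ITGA6, a laminin receptor chain that pairs with ITGB1 or ITGB4, was lower in all Fn14alpha KO libraries than in any other. Its differences were -0.90 ± 0.08 (adjusted p = 1.48e-09) for the Fn14alpha KO against WT and 1.00 ± 0.08 (adjusted p = 8.16e-11) for the Fn14 KO against the Fn14alpha KO. ITGA7 had 1.92, 1.75, 2.16 and 1.96 FPKM with TWEAK, 1.22, 1.02, 0.94 and 0.95 FPKM in the Fn14 KO, 2.34, 2.11, 2.27 and 1.83 FPKM in the Fn14alpha KO and 2.45, 2.45, 2.17 and 2.37 FPKM in WT. ITGA7, a laminin receptor chain best known from muscle, was lowest in the Fn14 KO with no overlap, at -1.08 ± 0.10 (adjusted p = 4.79e-09) against WT and -0.90 ± 0.10 (adjusted p = 8.07e-08) against the Fn14alpha KO, which became -1.35 with the neighbours' median removed. Its exons share 44 bases with METTL7B on the opposite strand, a gene of 615 counts in all libraries, where reads cannot be told apart.

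The alpha chains of the collagen receptors, ITGA1, ITGA2, ITGA10 and ITGA11, all pair with ITGB1. ITGA2 had 7.99, 8.56, 7.52 and 6.96 FPKM with TWEAK, 1.63, 2.24, 2.14 and 2.57 FPKM in the Fn14 KO, 2.38, 1.36, 1.78 and 1.75 FPKM in the Fn14alpha KO and 7.04, 7.22, 6.27 and 5.2 FPKM in WT. ITGA2 fell in both knockouts, whose 8 libraries all lay below those of TWEAK and WT. The differences were -1.47 ± 0.14 (adjusted p = 1.12e-08) in the Fn14 KO and -1.85 ± 0.14 (adjusted p = 9.36e-10) in the Fn14alpha KO. Between the knockouts it was 0.38 ± 0.15 (adjusted p = 0.0314) with overlapping libraries, and that call was lost in 11 of the alternatives, for example with library totals (0.23, adjusted p = 0.195), without Fn14alpha KO replicate 2 (0.27, adjusted p = 0.116) and without Fn14 KO replicate 4 (0.29, adjusted p = 0.125). ITGA1 had 1.3, 1.33, 1.24 and 1.09 FPKM with TWEAK, 0.34, 0.58, 0.47 and 0.6 FPKM in the Fn14 KO, 1.02, 0.93, 0.89 and 0.95 FPKM in the Fn14alpha KO and 1.22, 1.24, 1.08 and 1.13 FPKM in WT. ITGA1 was lower in each knockout library than in any WT library, with a difference of -1.10 ± 0.12 (adjusted p = 3.11e-08) in the Fn14 KO and -0.33 ± 0.11 (adjusted p = 0.0196) in the Fn14alpha KO, and it was lower in the Fn14 KO than in the Fn14alpha KO, with a difference of -0.77 ± 0.12 (adjusted p = 6.87e-06). The Fn14alpha KO call was lost with limma on log2(FPKM + 1) (adjusted p = 0.0513), with the neighbours' median removed (-0.12, adjusted p = 0.447), without WT replicate 2 (0.0573) and without Fn14alpha KO replicate 3 (0.0591). Exons of ITGA1 share 475 bases with those of PELO on the same strand, so that reads there are uncertain, and PELO was called lower too, with a difference of -0.17 in the Fn14 KO and -0.22 in the Fn14alpha KO.

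ITGA10 had 0.49, 0.48, 0.64 and 0.53 FPKM with TWEAK, 1.95, 2.14, 2.17 and 1.98 FPKM in the Fn14 KO, 0.43, 0.37, 0.49 and 0.44 FPKM in the Fn14alpha KO and 0.76, 0.59, 0.68 and 0.44 FPKM in WT. ITGA10, a collagen receptor chain of cartilage, was highest in the Fn14 KO, whose 4 libraries lay above 1.9 FPKM and all others below 0.8 FPKM. Its differences were 1.86 ± 0.14 (adjusted p = 4.74e-11) for the Fn14 KO against WT, 2.39 ± 0.15 (adjusted p = 1.11e-12) against the Fn14alpha KO, and -0.53 ± 0.17 (adjusted p = 0.0118) for the Fn14alpha KO against WT, where the libraries overlapped and leaving out WT replicate 1 ended the call (-0.43, adjusted p = 0.0534). ITGA11, a receptor for fibrillar collagen on fibroblasts, stayed under 1 FPKM at 0.12 to 0.22 FPKM in the Fn14 KO, 0.59 to 0.74 FPKM in the Fn14alpha KO and 0.15 to 0.30 FPKM in WT. It rose in the Fn14alpha KO by 1.56 ± 0.19 (adjusted p = 4.34e-07) (425 counts against 152 in WT) and was lower in the Fn14 KO than in the Fn14alpha KO, with a difference of -1.93 ± 0.20 (adjusted p = 1.51e-08).

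ITGAV had 7.59, 7.74, 7.1 and 7.1 FPKM with TWEAK, 8.47, 9.37, 9.74 and 12 FPKM in the Fn14 KO, 5.23, 4.28, 4.84 and 5.43 FPKM in the Fn14alpha KO and 6.05, 6.41, 5.59 and 6.37 FPKM in WT. ITGAV, the alpha chain of receptors for vitronectin and latent TGF-beta, was highest in the Fn14 KO and lowest in the Fn14alpha KO, and the 4 groups did not overlap. It rose with TWEAK by 0.33 ± 0.09 (adjusted p = 0.0165), in the Fn14 KO by 0.81 ± 0.09 (adjusted p = 2.26e-08) and was lower in the Fn14alpha KO, with a difference of -0.34 ± 0.09 (adjusted p = 0.00297). The knockouts differed by 1.15 ± 0.09 (adjusted p = 5.6e-11). The TWEAK call was lost with library totals (adjusted p = 0.054), with limma on log2(FPKM + 1) (0.0931) or log2(FPKM + 0.1) (0.0938), without WT replicate 3 (0.0675), without TWEAK replicate 1 (0.0524) and without TWEAK replicate 2 (0.0578). ITGAE had 2.49, 2.48, 2.78 and 3.16 FPKM with TWEAK, 5.37, 3.93, 3.93 and 3.45 FPKM in the Fn14 KO, 2.16, 2.6, 2.49 and 2.62 FPKM in the Fn14alpha KO and 3.11, 3.14, 2.85 and 3.64 FPKM in WT. ITGAE, known from T cells of epithelia where it pairs with ITGB7, was above every WT library in 3 of 4 Fn14 KO libraries and below every WT library in all 4 Fn14alpha KO libraries. The differences were 0.51 ± 0.12 (adjusted p = 0.000812) in the Fn14 KO, -0.40 ± 0.12 (adjusted p = 0.0104) in the Fn14alpha KO and 0.91 ± 0.12 (adjusted p = 6.65e-07) between the knockouts. With the neighbours' median removed they were 0.28 (adjusted p = 0.0554), -0.26 (0.108) and 0.55 (0.000611). Its exons share 427 bases with HASPIN on the opposite strand, which was called higher in the Fn14 KO by 0.39, and since the strand setting of the counts is unknown, reads there cannot be told apart.

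**Figure D3:**
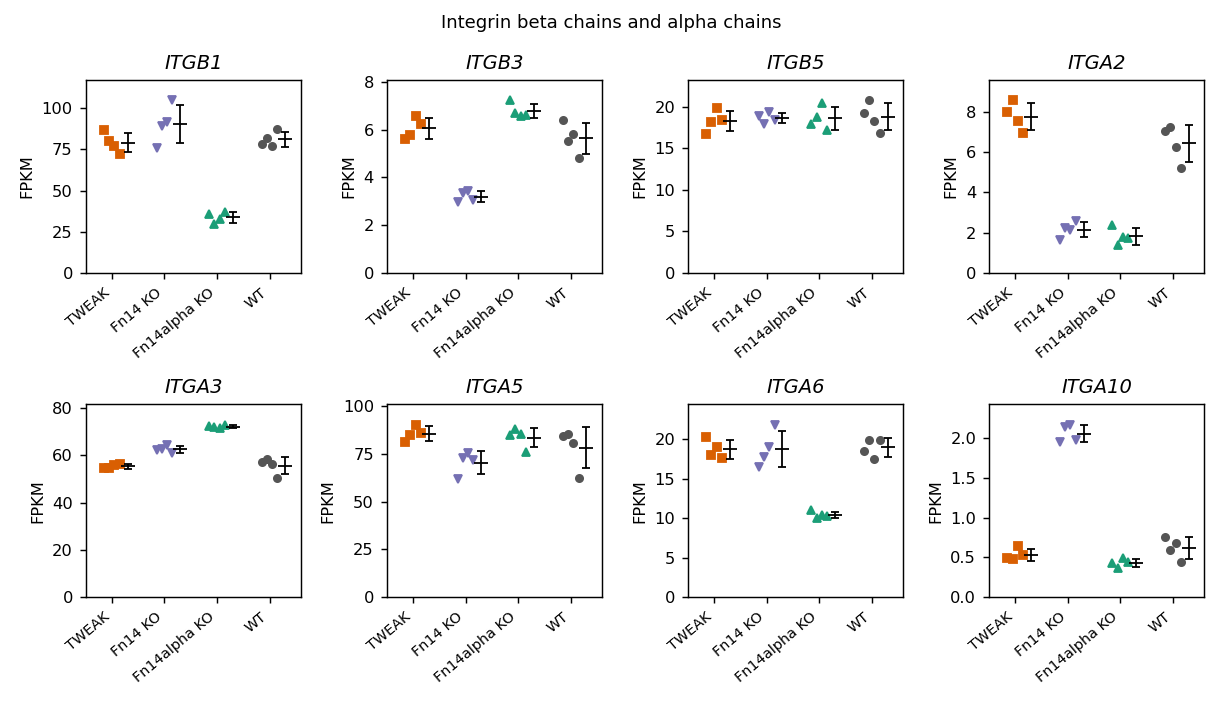
FPKM of 3 integrin beta and 5 alpha chains in each of 4 libraries per group, with the mean and SD of the group beside the points and axes that start at 0. ITGB1 and ITGA6 are lowest in the Fn14alpha KO, ITGB3 is lowest in the Fn14 KO, ITGA10 is highest there, and ITGA2 is lower in both knockouts than in WT.

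ITGA4, which binds VCAM1 and fibronectin, averaged 2.89 ± 0.254 FPKM with TWEAK, 2.62 ± 0.610 in the Fn14 KO, 2.64 ± 0.344 in the Fn14alpha KO and 2.91 ± 0.418 in WT (SD, n = 4) without a call. ITGAX, a chain of myeloid cells, stayed under 1 FPKM, with 18 counts over 4 libraries in the Fn14 KO, 145 in the Fn14alpha KO and 271 in WT. It fell, with a difference of -3.73 ± 0.28 (adjusted p = 8.36e-11) in the Fn14 KO and -0.83 ± 0.20 (adjusted p = 0.00147) in the Fn14alpha KO, and was lower in the Fn14 KO than in the Fn14alpha KO, with a difference of -2.90 ± 0.31 (adjusted p = 2.09e-08). The summed FPKM of 15 leukocyte markers ran from 54.5 to 59.9 in the Fn14 KO, 69.6 to 73.0 in the Fn14alpha KO and 106 to 108 in WT, with 4, 3 and 4 of the 15 at 1 FPKM or more, FCGR3A at 0 counts and LCP1 and HCLS1 giving most of the sum. Their part in the fall of ITGAX was not tested. PTPRC, the common leukocyte antigen, was at 0, 0.005 and 0.0075 FPKM in the Fn14 KO, the Fn14alpha KO and WT. ITGA2B, the platelet chain, was at 0.14 to 0.39 FPKM in all libraries and not called.

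How much ITGB1 there was for its alpha chains was set against the summed FPKM of the 12 alpha chains known to pair with it. ITGB1 amounted to 43.6% ± 3.80 of that sum with TWEAK, 53.1% ± 4.56 in the Fn14 KO, 18.8% ± 2.14 in the Fn14alpha KO and 47.4% ± 6.88 in WT (SD, n = 4). The Fn14alpha KO libraries, at 16.3 to 21.4%, lay below all others, the lowest of which was 40.1%. The sum of the alpha chains itself was 181 ± 3.85 FPKM with TWEAK, 170.0 ± 9.65 FPKM in the Fn14 KO, 179 ± 4.35 FPKM in the Fn14alpha KO and 173 ± 15.1 FPKM in WT. With exonic sizes of GENCODE 29, an alternative added after the data had been seen, the percentages were 100.0, 119, 43.9 and 109, so the level depends on the annotation while the Fn14alpha KO stays lowest. Of all integrin beta FPKM as deposited, ITGB1 made up 56.0% in the Fn14alpha KO and 76.4% in WT. These shares also depend on the annotation and were not recomputed with GENCODE 29 sizes. Of 24 known integrin pairs, 10 had both chains at a mean of 1 FPKM or more with TWEAK, in the Fn14 KO and in WT, and 9 in the Fn14alpha KO, where ITGA1 averaged 0.948 FPKM. The 10 were not the same pairs throughout: in the Fn14 KO, ITGA10 with ITGB1 passed and ITGA1 with ITGB1 did not.

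Of the laminin alpha chains, LAMA4 showed the largest difference among chains at 1 FPKM or more. LAMA4 had 3.15, 3.02, 3.22 and 3.07 FPKM with TWEAK, 0.2, 0.16, 0.21 and 0.2 FPKM in the Fn14 KO, 3.02, 2.67, 2.39 and 2.92 FPKM in the Fn14alpha KO and 3.4, 3.57, 3.3 and 3.11 FPKM in WT. LAMA4, the alpha chain of laminins of vessels, muscle and fat, was in the Fn14 KO at or below 0.21 FPKM in every library, with no overlap with any other group. The fit gave -4.01 ± 0.11 (adjusted p = 2.11e-19) against WT, a 16.1-fold lower level (140 counts against 2527), and -3.70 ± 0.11 (adjusted p = 1.19e-18) against the Fn14alpha KO. In the Fn14alpha KO it was -0.31 ± 0.08 (adjusted p = 0.00216) against WT, a call lost with the neighbours' median removed (-0.10, adjusted p = 0.331). The genes beside LAMA4 had a median of 0.21 in the Fn14 KO, the other way.

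LAMA5 had 23.5, 27.1, 28.02 and 26.01 FPKM with TWEAK, 10.1, 12.4, 12.9 and 11.8 FPKM in the Fn14 KO, 27.9, 22.7, 21.97 and 21.9 FPKM in the Fn14alpha KO and 19.8, 19.3, 18.2 and 12.6 FPKM in WT. LAMA5, the alpha chain of laminins of mature epithelial and vascular basement membranes, was the most abundant alpha chain in all groups, highest with TWEAK and lowest in the Fn14 KO, where 1 library topped the lowest WT library (replicate 4). It rose with TWEAK by 0.64 ± 0.11 (adjusted p = 0.000775) and in the Fn14alpha KO by 0.40 ± 0.11 (adjusted p = 0.00707), and fell in the Fn14 KO, with a difference of -0.44 ± 0.11 (adjusted p = 0.00263). Between the knockouts the difference was -0.85 ± 0.11 (adjusted p = 2.24e-06). The Fn14alpha KO call was lost with the neighbours' median removed (0.21, adjusted p = 0.169). Without WT replicate 4 and Fn14 KO replicate 1 the differences from WT were 0.52 with TWEAK, -0.50 in the Fn14 KO and 0.28 in the Fn14alpha KO, each still called. Exons of LAMA5 share 244 bases with those of ADRM1 on the opposite strand, a gene of 68693 counts in all libraries that averaged 149 ± 3.40 FPKM with TWEAK and 134 ± 6.40 FPKM in WT and was not called there (adjusted p = 0.0952). ADRM1 was called lower in the Fn14 KO, with a difference of -0.25, and reads from the shared bases cannot be told apart without a known strand setting.

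LAMA1 had 1.82, 1.82, 1.97 and 1.84 FPKM with TWEAK, 1.36, 1.43, 1.6 and 1.5 FPKM in the Fn14 KO, 1.5, 1.4, 1.42 and 1.28 FPKM in the Fn14alpha KO and 2.36, 2.42, 1.98 and 1.62 FPKM in WT. LAMA1, the alpha chain of the embryonic laminin, was lower in every knockout library than in any WT library, with a difference of -0.39 ± 0.10 (adjusted p = 0.0017) in the Fn14 KO and -0.61 ± 0.10 (adjusted p = 2.18e-05) in the Fn14alpha KO. LAMA2, the alpha chain of muscle laminin, stayed under 1 FPKM at 0.34 to 0.54 FPKM in the Fn14 KO, 0.17 to 0.26 FPKM in the Fn14alpha KO and 0.34 to 0.43 FPKM in WT. It fell in the Fn14alpha KO, with a difference of -0.92 ± 0.14 (adjusted p = 1.13e-05) and was higher in the Fn14 KO than there by 1.15 ± 0.14 (adjusted p = 1.83e-07), or 0.56 with the neighbours' median removed. LAMA3, the alpha chain of skin laminin, had 0.30 to 0.42 FPKM in the Fn14 KO, 0.58 to 0.82 FPKM in the Fn14alpha KO and 0.54 to 0.83 FPKM in WT. It fell in the Fn14 KO, with a difference of -0.67 ± 0.15 (adjusted p = 0.000555) and was lower there than in the Fn14alpha KO, with a difference of -0.68 ± 0.15 (adjusted p = 0.000466).

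LAMB3 had 21.8, 23.1, 23.9 and 24.2 FPKM with TWEAK, 17.7, 15.01, 14.1 and 14.2 FPKM in the Fn14 KO, 11.7, 11.5, 12.7 and 10.8 FPKM in the Fn14alpha KO and 17.5, 17.7, 17.2 and 18.8 FPKM in WT. LAMB3, the beta chain of the skin laminin, was highest with TWEAK and lowest in the Fn14alpha KO, both without overlap with WT. It rose with TWEAK by 0.44 ± 0.07 (adjusted p = 0.000195) and fell in the Fn14alpha KO, with a difference of -0.64 ± 0.08 (adjusted p = 2.58e-07). The Fn14 KO was not called against WT, at -0.10 ± 0.07 (adjusted p = 0.248). Only Fn14 KO replicate 1, at 17.7 FPKM, overlapped WT, and its other libraries lay below every WT library. The genes beside LAMB3 had a median of 0.42 in the Fn14 KO, the other way. The knockouts differed by 0.53 ± 0.08 (adjusted p = 1.69e-06), a call lost with the neighbours' median removed (0.14, adjusted p = 0.14).

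**Figure D4:**
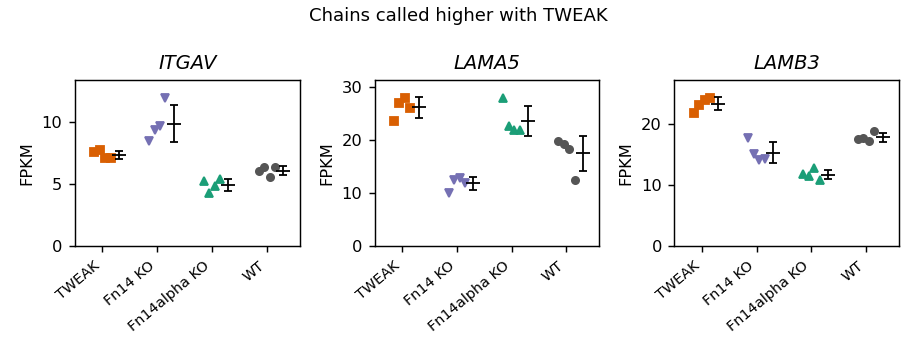
FPKM of ITGAV, LAMA5 and LAMB3, the 3 chains called higher with TWEAK, in each of 4 libraries per group, with the mean and SD beside the points and axes that start at 0. All 4 TWEAK libraries lie above all 4 WT libraries in each panel, and in the Fn14 KO ITGAV is above and LAMA5 below its WT mean.

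LAMB2 had 24.1, 25.4, 26.9 and 27.2 FPKM with TWEAK, 36.97, 34.9, 33.7 and 34.4 FPKM in the Fn14 KO, 29.6, 27.6, 25.9 and 29.2 FPKM in the Fn14alpha KO and 28.98, 26.9, 26.3 and 25.3 FPKM in WT. LAMB2, the beta chain of mature and synaptic laminins, was highest in the Fn14 KO with no overlap, by 0.50 ± 0.06 (adjusted p = 3.05e-07) against WT and 0.47 ± 0.06 (adjusted p = 6.24e-07) against the Fn14alpha KO. The genes beside LAMB2 on chromosome 3 had a median of 0.58 in the Fn14 KO. With it removed the differences turned to -0.082 (adjusted p = 0.309) against WT and -0.30 (adjusted p = 0.000346) against the Fn14alpha KO, so LAMB2 rose no more than its neighbours. LAMB1 had 15.5, 15.8, 15.2 and 13.8 FPKM with TWEAK, 11.5, 12.7, 11.7 and 13.5 FPKM in the Fn14 KO, 17.04, 14.3, 16.2 and 15.3 FPKM in the Fn14alpha KO and 17.2, 17.7, 16.3 and 17.3 FPKM in WT. LAMB1, the beta chain of most embryonic laminins, fell in the Fn14 KO, whose libraries lay below all others, with a difference of -0.36 ± 0.07 (adjusted p = 6.52e-05) against WT. Against the Fn14alpha KO it was -0.20 ± 0.07 (adjusted p = 0.0125), -0.35 with library totals and not called without Fn14alpha KO replicate 1 (-0.16, adjusted p = 0.0609). Its exons share 70 bases with DLD on the opposite strand, which was called in neither knockout against WT.

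LAMC1 had 59.9, 57.5, 59.95 and 53.9 FPKM with TWEAK, 66.7, 86.2, 88.8 and 94.2 FPKM in the Fn14 KO, 56.7, 50.4, 49.7 and 52.2 FPKM in the Fn14alpha KO and 53.1, 54.7, 49.6 and 42.96 FPKM in WT. LAMC1, the gamma chain shared by most laminins, was in all Fn14 KO libraries above any other library, by 0.86 ± 0.09 (adjusted p = 9.42e-09) against WT and 0.83 ± 0.09 (adjusted p = 1.3e-08) against the Fn14alpha KO. The median of the genes beside it on chromosome 1 was 0.45 in the Fn14 KO, and with that removed the differences were 0.42 (adjusted p = 0.000346) and 0.27 (adjusted p = 0.0114). LAMC3, a less widespread gamma chain, had 5 counts in the Fn14 KO, all in replicate 4, 174 in the Fn14alpha KO and 32 in WT. It rose in the Fn14alpha KO by 2.50 ± 0.36 (adjusted p = 4.77e-06). The Fn14 KO was called lower than both, and no fold is given because 3 of its 4 libraries held 0 counts. The call against WT was lost with limma on log2(FPKM + 1) (adjusted p = 0.0634). LAMB4 was not tested.

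**Figure D5:**
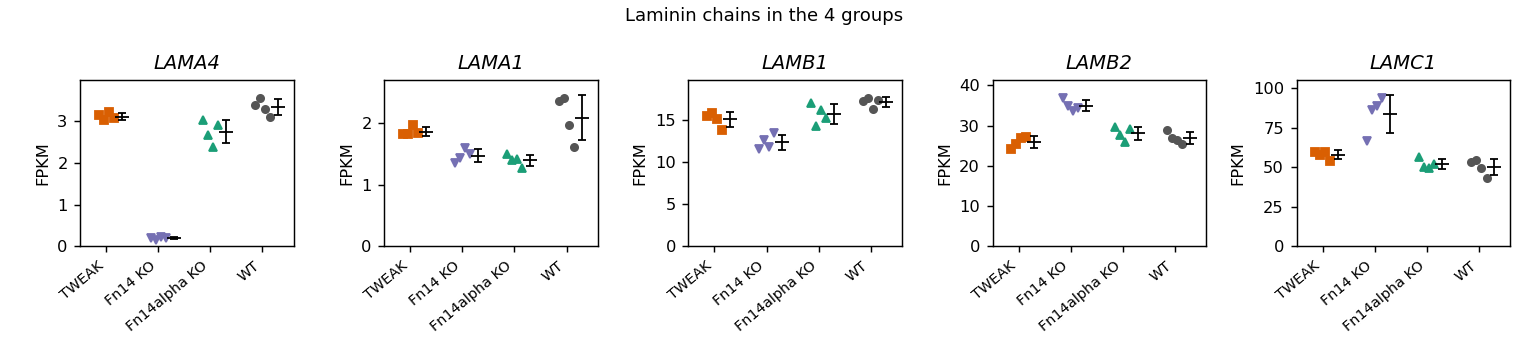
FPKM of LAMA4, LAMA1, LAMB1, LAMB2 and LAMC1 in each of 4 libraries per group, with the mean and SD beside the points and axes that start at 0. LAMA4 lies near 0 in the Fn14 KO at 0.193 FPKM, while LAMC1 and LAMB2 are highest in that group.

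The 5 laminin alpha chains together gave 32.1 ± 1.98 FPKM with TWEAK, 14.3 ± 1.40 FPKM in the Fn14 KO, 28.7 ± 3.21 FPKM in the Fn14alpha KO and 24.0 ± 3.99 FPKM in WT (SD, n = 4). The Fn14 KO libraries, at 12.3 to 15.5 FPKM, lay below all others. LAMA5 made up 81.4% of that sum with TWEAK, 82.7% in the Fn14 KO, 82.4% in the Fn14alpha KO and 72.7% in WT, and LAMA4 9.73%, 1.36%, 9.63% and 14.2%. LAMC1 was 1.81, 5.86, 1.83 and 2.11 times the alpha sum with TWEAK, in the Fn14 KO, in the Fn14alpha KO and in WT. The Fn14 KO libraries ran from 5.43 to 6.50 and all others stayed at or below 2.36. LAMB3 made up 36.2%, 24.3%, 21.1% and 28.8% of the laminin beta sum as deposited, in the same order of groups, and LAMB2 40.3%, 55.9%, 50.6% and 43.5%. These beta shares depend on the exonic size of LAMB1. With GENCODE 29 sizes, WT means were 39.1 FPKM for LAMB1, 26.9 FPKM for LAMB2 and 17.6 FPKM for LAMB3, which puts LAMB1 first. Of 8 known laminin trimers, 5 had all chains at 1 FPKM or more as deposited with TWEAK, in the Fn14alpha KO and in WT. In the Fn14 KO 3 did, as the trimers of LAMA4 dropped out. These counts depend on the exonic size of LAMA2. With GENCODE 29 sizes LAMA2 averaged 1.04 FPKM with TWEAK, 1.08 in the Fn14 KO, 0.548 in the Fn14alpha KO and 1.00 in WT. Its trimers would then pass except in the Fn14alpha KO, so the contrast between the knockouts in these counts rests on the annotation.

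The adaptors, basement membrane genes and ligands around these chains were counted in the same fit, as lists. The adhesion plaque list held adaptors between integrins and actin, and also regulators of integrins, cytolinkers and tetraspanins. Of its 33 genes, 5 rose and 1 fell with TWEAK, 19 rose and 7 fell in the Fn14 KO, and 8 rose and 6 fell in the Fn14alpha KO. Between the knockouts, 17 were higher and 5 lower in the Fn14 KO. Over all genes tested, 4.82% rose and 2.05% fell with TWEAK, 26.6% and 26.3% in the Fn14 KO, and 20.0% and 22.2% in the Fn14alpha KO, with 30.7% higher and 28.5% lower between the knockouts. PLEC, the cytolinker plectin, rose by 0.68 with TWEAK and 0.80 in the Fn14 KO. BCAR1, a scaffold of focal adhesions, rose by 0.36 with TWEAK and 0.45 in the Fn14alpha KO, and PTK2B, a kinase related to FAK, fell by 0.65 with TWEAK and 0.99 in the Fn14alpha KO. FERMT2, the integrin activator kindlin-2, rose by 0.59 in the Fn14 KO, where the tetraspanin CD9 fell by 0.98. CD63, another tetraspanin, fell by 0.73 in the Fn14alpha KO. Between the knockouts, FLNA, the actin crosslinker filamin A, was higher by 1.26 and PTK2B by 1.36 in the Fn14 KO, and CD9 lower, at -0.83.

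The basement membrane list held matrix genes other than laminins, and also genes of the cell surface and others, such as DAG1, SDC1 and RPSA. Of its 32 genes, 27 were tested: 2 rose and 1 fell with TWEAK, 6 rose and 14 fell in the Fn14 KO, and 6 rose and 10 fell in the Fn14alpha KO. Between the knockouts, 12 were higher and 11 lower in the Fn14 KO than in the Fn14alpha KO. All genes tested gave 4.82% and 2.05%, 26.6% and 26.3%, 20.0% and 22.2%, and 30.7% and 28.5%, higher and lower, in these comparisons. COL4A1, a main chain of type IV collagen, had 54.9 ± 6.15 FPKM in the Fn14 KO, 46.5 ± 4.04 FPKM in the Fn14alpha KO and 17.4 ± 1.36 FPKM in WT (SD, n = 4), differences of 1.77 and 1.38 from WT. COL4A2, its partner, rose by 1.30 and 0.78 in the Fn14 KO and the Fn14alpha KO, and SPARC, which binds collagen IV, by 1.18 in the Fn14 KO. COL4A5 fell by 1.54 in the Fn14alpha KO. With TWEAK, NTN4, a netrin that binds laminins, fell by 0.58, and AGRN, a proteoglycan that binds laminin, rose by 0.25 and COL7A1, the collagen of anchoring fibrils, by 0.28. In the Fn14 KO relative to the Fn14alpha KO, SPARC was higher by 1.28 and COL7A1 by 0.78, and SDC1, the proteoglycan syndecan-1, lower, at -0.80.

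Of 41 integrin ligands, 30 were tested: 6 rose and 1 fell with TWEAK, 11 rose and 12 fell in the Fn14 KO, 11 rose and 11 fell in the Fn14alpha KO, and 12 were higher and 13 lower in the Fn14 KO than in the Fn14alpha KO. The shares of all genes tested, higher and lower, were 4.82% and 2.05%, 26.6% and 26.3%, 20.0% and 22.2%, and 30.7% and 28.5% in turn. VCAM1, which ITGA4 with ITGB1 binds, had 6.85 ± 0.52 FPKM with TWEAK, 0.01 ± 0.01 FPKM in the Fn14 KO, 6.31 ± 0.24 FPKM in the Fn14alpha KO and 1.59 ± 0.14 FPKM in WT (SD, n = 4), a rise of 2.16 with TWEAK and 1.95 in the Fn14alpha KO. ICAM1, a ligand of leukocyte integrins, rose by 1.02 with TWEAK and fell by 5.0 in the Fn14 KO. EDIL3, a ligand of ITGAV pairs, rose by 2.57 in the Fn14 KO and 1.81 in the Fn14alpha KO. COL6A3, a chain of type VI collagen, rose by 5.05 in the Fn14 KO, and CCN2, which binds several integrins, rose by 1.86 in the Fn14alpha KO. CCN1, a related ligand, rose by 0.84 with TWEAK. Between the knockouts, the ligands with the smallest adjusted p were VCAM1, whose means stand above, COL6A3, higher by 5.51 in the Fn14 KO, and ICAM1, lower there at -5.03. Median differences of the adhesion plaque, basement membrane and ligand lists were 0.07, 0.05 and 0.03 with TWEAK, 0.23, -0.20 and 0.14 in the Fn14 KO, and 0.08, -0.09 and 0.01 in the Fn14alpha KO, against -0.01, -0.01 and 0.01 over all genes tested.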

How the data were processed

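Poly(A) RNA-seq of 16 LX-2 libraries was used, in 4 groups of 4 taken from the labels. The deposited table holds raw read counts per gene and library, which the authors left unnormalized. It also holds FPKM values that the authors made, and these equal count divided by exonic size and library total within 0.01. HISAT2 2.0.1 and HTSeq 0.6.1 are named in the submitters' processing notes, as are cutadapt 1.9.1, DESeq2 and FastQC 0.10.1, with the builds hg38 and GRCh38.p13. Not given in the sources used here: strand setting, annotation release and the handling of multimapping reads. Only 8 of the 38 chains have the same position in GENCODE 29, so exon overlaps, read from GENCODE 29, are approximate.

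Counts were tested with edgeR 4.0.16 (R 4.3.3; quasi-likelihood, two-sided, robust, TMM, filterByExpr) over all 16 libraries with 1 mean per group and no block, and adjusted by Benjamini-Hochberg over 16029 genes at 0.05. The SE is the log2 fold change divided by the square root of F. The fit was tested on simulated data. Total counts of 13335919 to 16888606 limit precision for chains under 1 FPKM. Replicate pairs differed beyond sampling noise (chi-square per degree of freedom 2.30 to 39.0), so each library counted once. TNFRSF12A also had an exact permutation test. Alternatives used DESeq2 1.42.0, limma 3.58.1 on log2(FPKM + 1) or log2(FPKM + 0.1), other scaling, no filter, 2 groups, a block, left-out libraries and removal of the median of the 25 tested genes on each side.

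Chains with a mean of 1 FPKM or more in 1 group that were called at least once are given per library, other chains by means or ranges, and of each list up to 3 called genes per comparison by smallest adjusted p with at least 2 FPKM. The chains, the 3 pathway lists (adhesion plaque, basement membrane, integrin ligands) and the marker lists (stellate, leukocyte, endothelial, epithelial, platelet, hepatocyte) were chosen with earlier results of these data known. Replicate numbers did not pair the libraries. The values of 1 chain are not reported here, though counts over all chains include it. Python 3.11.15 and matplotlib 3.10.9 drew the plots.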

Additional observations from a re-analysis of the deposited data

Results flagged for a closer look

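Over 74 groups of 4 libraries, a lone highest or lowest library was sought by Dixon's ratio, and chance alone flags about 1 in 20 groups. ITGA4 had 2.13 FPKM in Fn14alpha KO replicate 2, against 2.78 to 2.87 FPKM in the other 3 libraries. LAMA1 had 1.97 FPKM in TWEAK replicate 3, against 1.82 to 1.84 FPKM in the others. LAMA5 had 27.9 FPKM in Fn14alpha KO replicate 1, against 21.9 to 22.7 FPKM in the others. The summed FPKM of 10 endothelial, 10 epithelial, 8 platelet and 8 hepatocyte markers stayed at 8.59 to 23.5, 3.22 to 6.73, 0.24 to 0.79 and 0.86 to 4.48 over all libraries, and those of 12 stellate markers at 595 to 1215.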

How the results depend on the processing

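Of 65 called differences in single chains, 48 kept direction and call under every alternative. Over their 1169 alternative values, 41 lost the call and 3 reversed. With the median of neighbouring genes removed, ITGB3 in the Fn14alpha KO against WT became -0.043, and LAMB2 became -0.082 in the Fn14 KO against WT and -0.30 between the knockouts. That setting also left 4 chains called higher in the Fn14 KO instead of 9. With TWEAK, 5 chains were called higher with no low-count filter and 5 with only the 2 groups compared, instead of 3. Leaving out 1 library gave 2 to 4 chains higher and 0 to 0 lower with TWEAK, 9 to 10 higher and 12 to 13 lower in the Fn14 KO, 6 to 7 higher and 13 to 15 lower in the Fn14alpha KO, and 10 to 12 higher and 10 to 11 lower between the knockouts. The cause of these changes was not tested, except that the reversals follow from the size of the neighbours' median.

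Library totals in place of TMM shifted the median of all genes by -0.12 in the Fn14 KO against WT and -0.15 between the knockouts. Of all calls, 43.9% were then higher with TWEAK, 36.0% in the Fn14 KO and 37.3% between the knockouts, against 70.2%, 50.2% and 51.9% with TMM. The replicate block cost no chain its call, with 3 chains called higher with TWEAK. Same-numbered libraries deviated with correlations from -0.23 to 0.11, so the numbers were not taken to pair them. At other thresholds, 25 chains reached 0.5 FPKM and 19 reached 2 FPKM, and 21 reached 1 FPKM with GENCODE 29 sizes. Depth limits the chains with few counts, such as LAMC3 with 5 in the Fn14 KO, and log2(FPKM + 1) compresses them by construction.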
